A study of Mus musculus with 8 samples.

Results

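*Cers2*, *Fa2h*, *Ugt8a*, *Gal3st1*, *Aspa*, *Gatm*, *S1pr5* and *Enpp6* encode enzymes and a receptor of oligodendrocyte lipid and metabolite pathways, and all 8 genes were measured in the cerebral cortex of SAMP8 and SAMR1 mice. They were taken by gene symbol from the table of log2 signals. This gave 8 of 19761 genes with 1 symbol and 11 probe sets among the 45037 tested. The rule reads no measured value, but the symbols were chosen with earlier results of these data known. The paper had already reported *Aspa* lower in SAMP8 than SAMR1 mice at 16 weeks. It also reported *Gatm* higher with age in SAMP8 mice and *S1pr5* lower with age in SAMR1 mice. The counts of calls below are thus no independent support for these genes. *Ugt8a* has 2 probe sets and *Enpp6* has 3, so the gene value is its brightest probe set and the others are given beside it. The 4 groups were SAMP8 mice at 1 year, SAMP8 mice at 16 weeks, SAMR1 mice at 1 year and SAMR1 mice at 16 weeks, with 2 arrays each. SAMP8 is an inbred senescence-prone strain that ages early, and SAMR1 is the related senescence-resistant strain that stands as its control. All mice were male, and the sources name no transgene or treatment for any group. The strains are separate inbred lines, so an allele that differs between them for any reason cannot be told apart from accelerated aging. RNA came from whole dissected cortex, in which fewer cells of a type and less RNA per cell cannot be told apart.

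Oligodendrocytes wrap axons in myelin, a membrane rich in galactolipids and cholesterol. A hydroxyl group is added to part of the fatty acids. Ceramide synthase joins very long chain fatty acids to a sphingoid base, galactose is added to give galactosylceramide, and sulfation of part of it gives sulfatide. Mature oligodendrocytes also split N-acetylaspartate made by neurons, carry out the first step of creatine synthesis, and bear a receptor for sphingosine 1-phosphate. A choline-specific phosphodiesterase marks cells that are just forming myelin.

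Oligodendrocyte RNA in the tissue was read from 24 marker genes of myelinating oligodendrocytes, all of which were measured. The log2 of their summed linear signal was 13.58 to 13.59 on SAMP8 arrays at 1 year, 13.56 to 13.65 on SAMP8 arrays at 16 weeks, 13.67 to 13.71 on SAMR1 arrays at 1 year and 13.81 to 13.82 on SAMR1 arrays at 16 weeks. *Mag*, the myelin-associated glycoprotein, read 8.02 to 8.44 over the 8 arrays, so the tissue held oligodendrocyte RNA in all groups. These markers do not show from which cells the signals of the 8 lipid and metabolite genes came. Arrays of 1 group correlated at 0.995 to 0.998 and arrays of different groups at 0.990 to 0.996 over all probe sets. The SAMR1 arrays at 16 weeks stood apart in some markers of neighbouring brain regions. The summed level of 4 hypothalamus markers was 7.83 to 7.98 on those arrays, against 6.32 to 6.77 on the other 6. *Avp*, the vasopressin precursor, read 4.96 and 6.53 there and 3.29 to 3.61 elsewhere, and *Pmch*, the melanin-concentrating hormone precursor, read 7.21 and 4.93 there and 3.56 to 3.76 elsewhere. The other hypothalamus markers overlapped between these arrays and the rest. *Oxt* read 5.90 and 6.54 there and 5.51 to 6.24 elsewhere, and *Hcrt* read 3.74 and 3.44 there and 3.43 to 3.59 elsewhere. SAMR1 replicate 1 at 16 weeks also stood apart in 5 striatum markers, with a summed level of 8.93 against 10.10 to 10.45 on the other 7 arrays. *Drd1*, a dopamine receptor, read 6.70 there and 8.07 to 8.57 elsewhere. The part of these RNAs in the results below was not tested.

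Promoter windows, from 250 bases before to 50 bases after a gene's start in RefSeq (GRCm38.p6), were given for 7 of the 8 genes, in 10 windows. They were searched on both strands for letters bound by SOX factors (ACAAAG and ACAATG) and by MYRF (CTGGCAC and CTGGTAC), the families that drive myelin genes. Of the 10 windows, 4 windows of 3 genes held a match, and 2 of the 4 were overlapping *Gal3st1* windows with the same site. Of 32851 windows of this length in the genome, 18.7% held ACAAAG, 12.6% held ACAATG, 5.01% held CTGGCAC and 2.24% held CTGGTAC. The share of windows with any of the 4 was not counted. The 3 stretches that hold a match are shown, 1 for each gene. Of these genes, *Enpp6* and *S1pr5* were called with age in SAMR1 mice and *Gal3st1* was not called, and *Fa2h* had no window. A link between matches and calls was not tested. Capitals mark the match, 219 bases before the start in *Enpp6*, 184 in *Gal3st1* and 169 and 166 on the 2 strands in *S1pr5*, whose 2 matches overlap in 1 palindrome.
Enpp6, chr8:46986658-46986757, plus strand: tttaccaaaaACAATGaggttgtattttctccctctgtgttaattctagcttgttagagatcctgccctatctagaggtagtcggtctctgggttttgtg
Gal3st1, chr11:3983407-3983506, plus strand: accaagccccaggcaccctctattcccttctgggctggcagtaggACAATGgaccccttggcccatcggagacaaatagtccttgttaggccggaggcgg
S1pr5, chr9:21248573-21248672, minus strand: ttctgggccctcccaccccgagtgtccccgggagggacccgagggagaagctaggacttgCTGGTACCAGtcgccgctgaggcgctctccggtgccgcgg
A match is a description of the letters and not a measured binding site.

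Each gene was followed through the 4 comparisons of the study. These are early events (SAMP8 against SAMR1 at 16 weeks), late events (SAMP8 against SAMR1 at 1 year), accelerated aging (1 year against 16 weeks in SAMP8) and physiological aging (1 year against 16 weeks in SAMR1). Each pair of comparisons that meets in a group shares its arrays, so that SAMR1 at 16 weeks enters both early events and physiological aging. A gene was called at an adjusted p under 0.05 in the limma fit over all probe sets.

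On the brightest probe sets, SAMR1 mice at 16 weeks had the highest group mean for 6 of the 8 genes. The exceptions were *Cers2* and *Gatm*, which were highest in SAMR1 mice at 1 year. SAMP8 mice at 16 weeks had the lowest mean for *Cers2*, *Gal3st1*, *Aspa* and *Gatm*, SAMP8 mice at 1 year for *Fa2h*, *Ugt8a* and *S1pr5*, and SAMR1 mice at 1 year for *Enpp6*. The SAMP8 groups were thus never the highest, and the spread within a group reached 0.45 between the 2 arrays of *Gatm* in SAMR1 mice at 16 weeks.

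**Figure D1:**
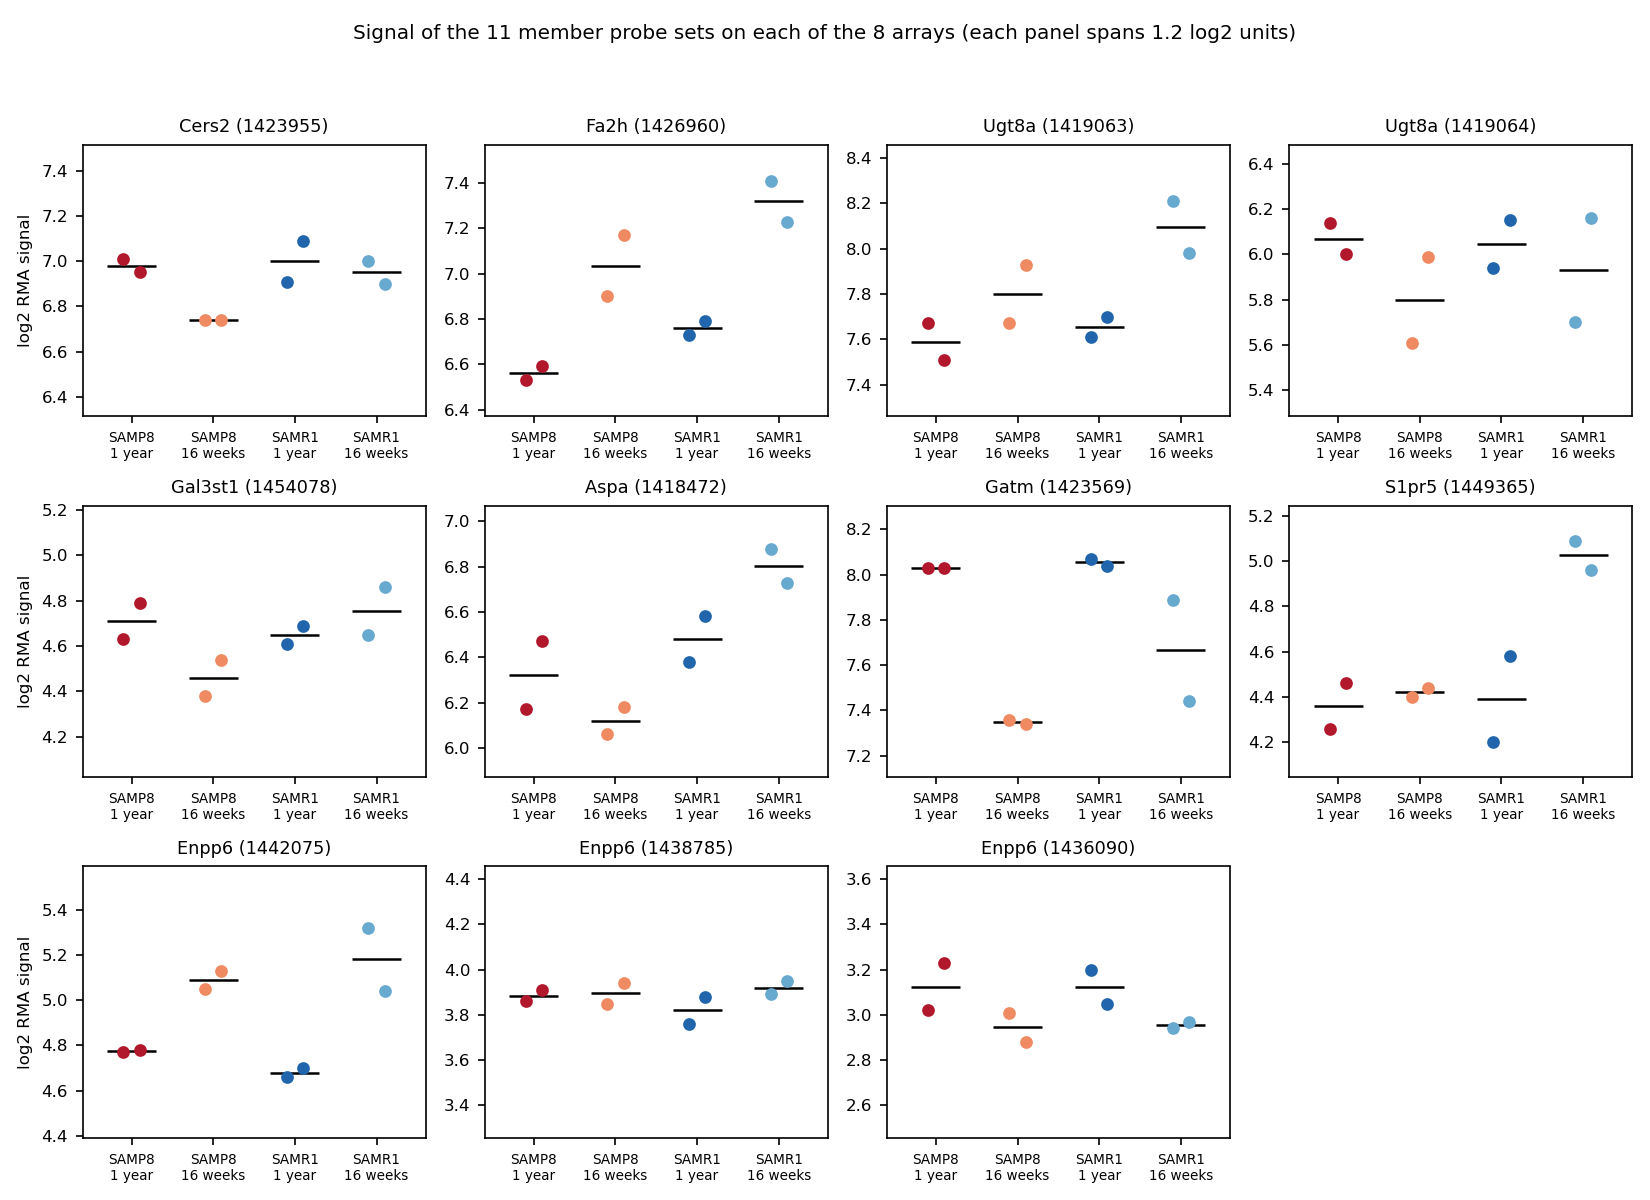
The log2 RMA signal (vertical axis) of the 11 probe sets on each array, with points for the 2 arrays and a line for the mean of SAMP8 at 1 year, SAMP8 at 16 weeks, SAMR1 at 1 year and SAMR1 at 16 weeks. *Aspa*, *Fa2h* and *S1pr5* were highest on both SAMR1 arrays at 16 weeks, and *Gatm* was near 8.03 to 8.07 on all 4 arrays at 1 year.

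In early events, all 11 probe sets had a negative log2 fold change, and 1 of 11 was called, the *Aspa* probe set. Over all probe sets 1.23% were called in either direction and 0.522% were called lower. At an unadjusted p under 0.05, 7 of 11 were lower, against 6.98% of all probe sets. The sign did not hold for 4 of the 11 without 1 array: the dimmer *Ugt8a* probe set and all 3 of *Enpp6* turned positive, the brightest of *Enpp6* to 0.05 without SAMR1 replicate 1 at 16 weeks, and 1436090_PM_at of *Enpp6* also turned positive when arrays were centred on their median. Of the 11, 7 had arrays that did not overlap between the strains, against 37.5% of all probe sets. The median log2 fold change was −0.30 over the brightest probe sets of the 8 genes and 0 over all genes.

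In late events, 0 of 11 probe sets were called by limma, 0 passed an unadjusted p of 0.05, and 0.688% of all probe sets were called. The fold changes ran from −0.20 for *Fa2h* to 0.10 for *Enpp6*, with a median of −0.03 over the 8 genes and 0.01 over all genes. Arrays of the strains did not overlap for 3 of 11 probe sets, against 38.6% of all probe sets. The 95% intervals show what the arrays leave possible at 1 year, from −0.42 to 0.10 for *Aspa*, −0.43 to 0.03 for *Fa2h* and −0.31 to 0.25 for *S1pr5* on the log2 scale.

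In accelerated aging, *Fa2h* fell and *Gatm* rose, so 2 of 11 probe sets were called against 5.07% of all probe sets, of which 2.8% were lower and 2.26% higher. The median over the 8 genes was 0.07, against −0.03 over all genes. Arrays of the ages did not overlap for 7 of 11 probe sets, against 52.4% of all probe sets.

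In physiological aging, *Fa2h*, *Enpp6* and *S1pr5* fell, so 3 of 11 probe sets were called, all lower, against 5.48% of all probe sets called and 2.85% called lower. The median over the 8 genes was −0.38, against −0.03 over all genes. Arrays of the ages did not overlap for 8 of 11 probe sets, where 52.4% of all probe sets were so separated.

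**Figure D2:**
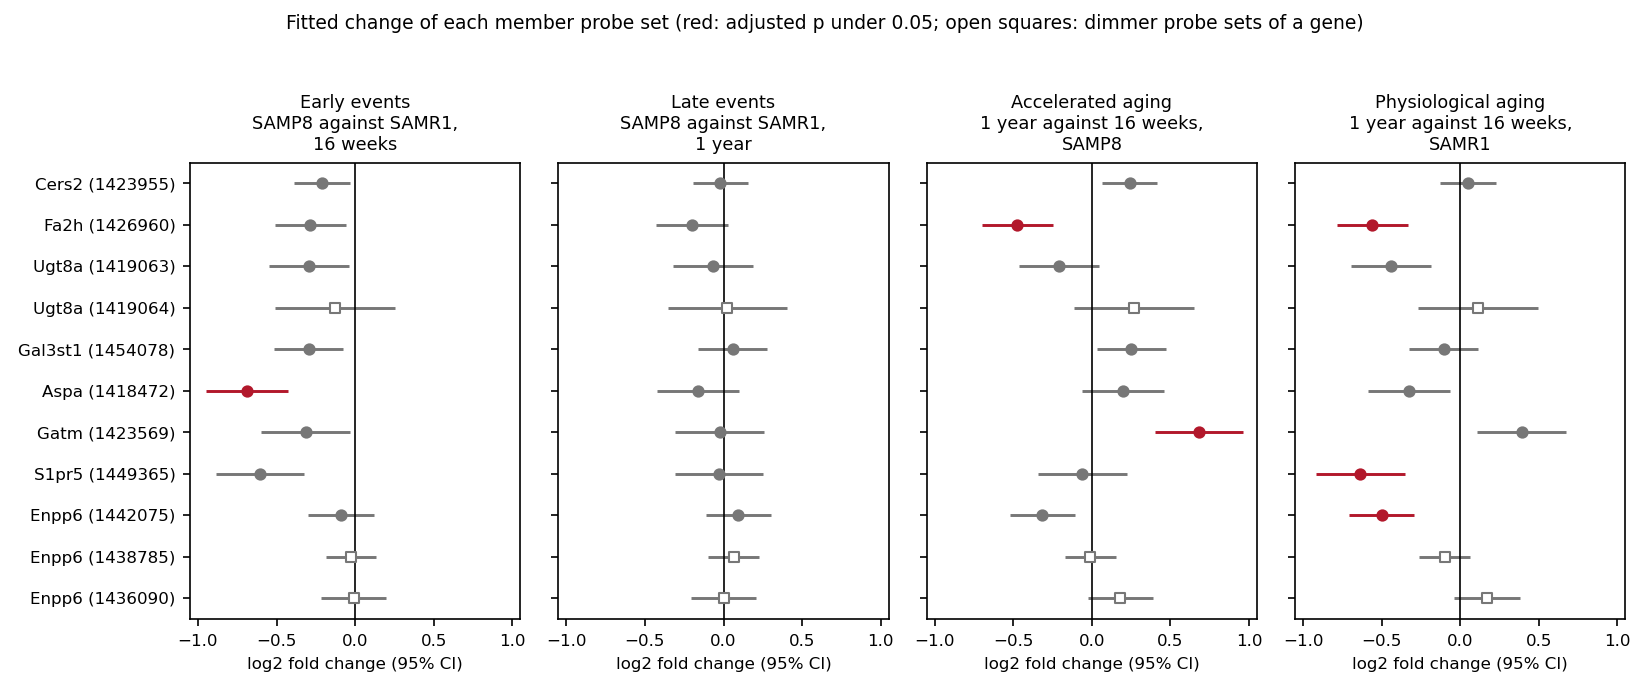
The fitted log2 fold change (horizontal axis) of the 11 probe sets in 4 comparisons, with bars for the 95% confidence interval, red where the adjusted p was under 0.05, and open squares for the dimmer probe sets of *Ugt8a* and *Enpp6*. All 11 points of early events lie below 0, and those of late events lie between −0.20 and 0.10.

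*Cers2* encodes the ceramide synthase that makes ceramides with very long chain fatty acids. Its log2 signal was 7.01 and 6.95 in SAMP8 mice at 1 year and 6.74 on both arrays of SAMP8 mice at 16 weeks. In SAMR1 mice it was 6.91 and 7.09 at 1 year and 7.00 and 6.90 at 16 weeks. The SAMP8 arrays at 16 weeks were thus the lowest of the 8, and the other 6 arrays overlapped between groups. The log2 fold change was −0.21 (SE 0.08) in early events, with an adjusted p of 0.274 in limma. It was 0.24 (SE 0.08) in accelerated aging, with an adjusted p of 0.109, and neither passed the threshold.

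*Fa2h* encodes fatty acid 2-hydroxylase, which adds the hydroxyl group carried by much of the galactolipid of myelin. It read 6.53 and 6.59 in SAMP8 mice at 1 year and 6.90 and 7.17 in SAMP8 mice at 16 weeks. In SAMR1 mice it read 6.73 and 6.79 at 1 year and 7.41 and 7.23 at 16 weeks. No array overlapped another group, and the order from high to low was SAMR1 at 16 weeks, SAMP8 at 16 weeks, SAMR1 at 1 year and SAMP8 at 1 year. *Fa2h* was the only one of the 8 genes called with age in both strains. It fell by 28.1% in accelerated aging, a log2 fold change of −0.48 (SE 0.10) with an adjusted p of 0.0360 in limma. It fell by 32.2% in physiological aging, a log2 fold change of −0.56 (SE 0.10) with an adjusted p of 0.0213. The difference between these age effects was 0.09 (95% interval −0.24 to 0.41, adjusted p 0.952), so no strain difference in the fall was detected, and one within that interval remains possible. Between the strains the log2 fold change was −0.29 (SE 0.10, adjusted p 0.249) in early events and −0.20 (SE 0.10, adjusted p 0.741) in late events, and neither was called. The call in accelerated aging was lost without SAMP8 replicate 2 at 16 weeks (log2 fold change −0.34, adjusted p 0.127), without SAMP8 replicate 1 or 2 at 1 year (0.191 and 0.142), and without SAMR1 replicate 1 or 2 at 1 year (0.0685 each). The call in physiological aging was lost without SAMR1 replicate 1 at 16 weeks (−0.47, adjusted p 0.0564) and without SAMR1 replicate 1 or 2 at 1 year (0.144 and 0.0983). Over all alternatives the adjusted p ran from 0.0240 to 0.389 in accelerated aging and from 0.0162 to 0.371 in physiological aging.

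*Ugt8a* encodes the galactosyltransferase that turns ceramide into galactosylceramide. Its brighter probe set (1419063_PM_at) read 7.67 and 7.51 in SAMP8 mice at 1 year and 7.67 and 7.93 in SAMP8 mice at 16 weeks. On SAMR1 arrays the values were 7.61 and 7.70 at 1 year and 8.21 and 7.98 at 16 weeks. Both SAMR1 arrays at 16 weeks lay above the other 6, whose groups overlapped. The log2 fold change was −0.44 (SE 0.11) in physiological aging with an adjusted p of 0.0574 in limma, just outside the threshold, and −0.30 (SE 0.11) in early events with an adjusted p of 0.283. Without SAMR1 replicate 2 at 16 weeks the value in physiological aging was −0.56 with an adjusted p of 0.0398, in a range of 0.0398 to 0.406 over all alternatives. The dimmer probe set (1419064_PM_a_at) spread by 0.46 between the 2 SAMR1 arrays at 16 weeks and gave 0.12 (SE 0.17, adjusted p 0.732) in physiological aging, so the probe sets of *Ugt8a* differed in sign there.

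*Gal3st1* encodes the sulfotransferase that makes sulfatide from galactosylceramide. It read 4.63 and 4.79 in SAMP8 mice at 1 year, 4.38 and 4.54 in SAMP8 mice at 16 weeks, 4.61 and 4.69 in SAMR1 mice at 1 year and 4.65 and 4.86 in SAMR1 mice at 16 weeks. As for *Cers2*, the SAMP8 arrays at 16 weeks were the lowest and the other groups overlapped. The log2 fold change was −0.30 (SE 0.10, adjusted p 0.217) in early events and 0.25 (SE 0.10, adjusted p 0.165) in accelerated aging, and neither was called.

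*Aspa* encodes aspartoacylase, which splits N-acetylaspartate in oligodendrocytes and whose loss causes Canavan disease in humans. It read 6.17 and 6.47 in SAMP8 mice at 1 year and 6.06 and 6.18 in SAMP8 mice at 16 weeks. In SAMR1 mice it read 6.38 and 6.58 at 1 year and 6.88 and 6.73 at 16 weeks. The SAMR1 arrays at 16 weeks were the highest of the 8, and the 2 SAMP8 groups overlapped. *Aspa* fell by 37.8% in early events, the only call of the 8 genes between the strains, with a log2 fold change of −0.69 (SE 0.11) and an adjusted p of 0.0312 in limma. In late events the log2 fold change was −0.16 (SE 0.11, adjusted p 0.896). With age it was 0.20 (SE 0.11, adjusted p 0.338) in SAMP8 and −0.33 (SE 0.11, adjusted p 0.131) in SAMR1. The difference between these age effects was 0.53 (SE 0.16), with an unadjusted p of 0.0108 and an adjusted p of 0.545, and was not called. Without SAMP8 replicate 1 or 2 at 16 weeks the adjusted p of early events was 0.135 and 0.121, without SAMR1 replicate 1 at 16 weeks it was 0.108, and without SAMR1 replicate 1 or 2 at 1 year it was 0.0575 each. Over all alternatives it ran from 0.0201 to 0.644.

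The genes whose signals followed *Aspa* most closely over the 8 arrays were *Mag*, with Pearson's r of 0.980, *Gsn* (0.980) and *Hebp1* (0.967). The 8 arrays share their groups, so these values describe the arrays and carry no test. *Mag* read 8.09 and 8.19 in SAMP8 mice at 1 year, 8.02 and 8.11 in SAMP8 mice at 16 weeks, 8.24 and 8.27 in SAMR1 mice at 1 year and 8.44 and 8.39 in SAMR1 mice at 16 weeks. Its log2 fold change in early events was −0.35 with an adjusted p of 0.0521, just outside the threshold.

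*Gatm* encodes glycine amidinotransferase, the enzyme of the first step of creatine synthesis. It read 8.03 on both arrays of SAMP8 mice at 1 year and 7.36 and 7.34 in SAMP8 mice at 16 weeks. In SAMR1 mice it read 8.07 and 8.04 at 1 year and 7.89 and 7.44 at 16 weeks. The 4 arrays at 1 year were the highest, and SAMR1 replicate 1 at 16 weeks lay close to them. *Gatm* rose by 60.2% in accelerated aging, a log2 fold change of 0.68 (SE 0.12) with an adjusted p of 0.0250 in limma. In physiological aging the value was 0.39 (SE 0.12, adjusted p 0.102), and without SAMR1 replicate 1 at 16 weeks it was 0.62 with an adjusted p of 0.00937, in a range of 0.00937 to 0.536 over all alternatives. The age effect of SAMP8 minus that of SAMR1 was 0.29 (95% interval −0.11 to 0.69, adjusted p 0.817). Between the strains it was −0.32 (SE 0.12, adjusted p 0.303) in early events and −0.03 (SE 0.12, adjusted p 0.992) in late events. Without SAMR1 replicate 2 at 16 weeks the early value was −0.54 with an adjusted p of 0.0123, and without replicate 1 it was −0.09 with 0.682, in a range of 0.0123 to 0.824. The call in accelerated aging kept a log2 fold change of 0.67 to 0.69 without any 1 array and was lost without each SAMP8 or 1-year array. Its adjusted p was 0.0770 and 0.104 without SAMP8 replicate 1 or 2 at 16 weeks, 0.137 and 0.129 without SAMP8 replicate 1 or 2 at 1 year, and 0.0552 without either SAMR1 array at 1 year, in a range of 0.00334 to 0.311 over all alternatives.

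The signals most like those of *Gatm* were *Kcnab2*, a potassium channel subunit, with r of 0.977, *Ttr* with r of 0.977, and *Hadhb*, an enzyme of fatty acid oxidation, with r of 0.970. *Ttr* encodes transthyretin, which the choroid plexus makes in large amounts. *Ttr* read 12 and 11.35 in SAMP8 mice at 1 year, 7.81 and 8.45 in SAMP8 mice at 16 weeks, 12.12 on both arrays of SAMR1 mice at 1 year and 11.82 and 8.29 in SAMR1 mice at 16 weeks. The split between the 2 SAMR1 arrays at 16 weeks ran the same way in both genes. The summed level of 5 choroid plexus markers was 11.39 to 12.03 on SAMP8 arrays at 1 year, 8.25 to 8.74 on SAMP8 arrays at 16 weeks, 12.15 on SAMR1 arrays at 1 year and 8.61 to 11.86 on SAMR1 arrays at 16 weeks. Where the sum was high, it was close to the *Ttr* signal alone, so it adds little to *Ttr*. The other 4 markers followed *Gatm* less closely, with r of 0.623 for *Kcnj13*, 0.511 for *Clic6*, 0.483 for *Folr1* and 0.439 for *Aqp1*. Each of these 4 overlapped between the ages in SAMP8 mice. In SAMR1 mice *Folr1* overlapped, while *Kcnj13*, *Clic6* and *Aqp1* were higher at 1 year without overlap. In that comparison 52.4% of all probe sets did not overlap. On SAMR1 replicates 1 and 2 at 16 weeks *Kcnj13* read 4.96 and 4.15 and *Folr1* 4.04 and 3.52, the same way as *Ttr*. *Clic6* (5.22 and 5.24) and *Aqp1* (3.51 and 3.54) did not split that way. None of the 5 was called in accelerated or physiological aging, where *Ttr* had log2 fold changes of 3.55 (adjusted p 0.0565) and 2.07 (adjusted p 0.204). The part of choroid plexus RNA in the *Gatm* values was not tested. *Gatm* had r of −0.30 with *Mog* and 0.23 with *Mag*, so its signal did not follow those myelin genes closely.

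*S1pr5* encodes the sphingosine 1-phosphate receptor of oligodendrocytes, which is also found on natural killer cells. It read 4.26 and 4.46 in SAMP8 mice at 1 year and 4.40 and 4.44 in SAMP8 mice at 16 weeks. The SAMR1 values were 4.20 and 4.58 at 1 year and 5.09 and 4.96 at 16 weeks. The SAMR1 arrays at 16 weeks stood above the other 6, whose groups all overlapped. *S1pr5* fell by 35.6% in physiological aging, a log2 fold change of −0.64 (SE 0.12) with an adjusted p of 0.0272 in limma. In early events the log2 fold change was −0.61 (SE 0.12), and its adjusted p of 0.0637 was just outside the threshold. In accelerated aging it was −0.06 (95% interval −0.34 to 0.22, adjusted p 0.816). The age effect of SAMP8 minus that of SAMR1 was 0.58 (SE 0.17), with an unadjusted p of 0.00995 and an adjusted p of 0.529, and was not called. Without SAMR1 replicate 1 at 16 weeks the adjusted p of physiological aging was 0.0724, and without SAMR1 replicate 1 or 2 at 1 year it was 0.142 and 0.0511, in a range of 0.0205 to 0.422 over all alternatives. Without either SAMR1 array at 1 year the early events value of −0.61 was called, with an adjusted p of 0.0409, in a range of 0.0409 to 0.644. The array medians were 4.32 to 4.36, so *S1pr5* was a dim probe set in every group but SAMR1 at 16 weeks.

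*Enpp6* encodes the choline phosphodiesterase of newly forming oligodendrocytes. Its brightest probe set (1442075_PM_at) read 4.77 and 4.78 in SAMP8 mice at 1 year and 5.05 and 5.13 in SAMP8 mice at 16 weeks. In SAMR1 mice it read 4.66 and 4.70 at 1 year and 5.32 and 5.04 at 16 weeks. All 4 arrays at 16 weeks lay above all 4 at 1 year, and the strains overlapped at 16 weeks. *Enpp6* fell by 29.3% in physiological aging, a log2 fold change of −0.50 (SE 0.09) with an adjusted p of 0.0232 in limma. In accelerated aging it was −0.32 (SE 0.09) with an adjusted p of 0.0840, and the age effect of SAMP8 minus that of SAMR1 was 0.19 (95% interval −0.11 to 0.48, adjusted p 0.849). Without SAMR1 replicate 1 or 2 at 1 year the adjusted p of physiological aging was 0.147 and 0.105, in a range of 0.00839 to 0.406 over all alternatives. Without either SAMR1 array at 16 weeks the accelerated aging value was called, with an adjusted p of 0.0271, in a range of 0.0271 to 0.320. The other probe sets, 1438785_PM_at and 1436090_PM_at, had mean log2 signals of 3.88 and 3.04, below the array medians, and gave −0.10 (adjusted p 0.439) and 0.17 (adjusted p 0.301) in physiological aging.

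The age effect of SAMP8 minus that of SAMR1 was positive for all 11 probe sets, that is, the value with age was more positive or less negative in SAMP8 mice. The sign did not hold for 3 of the 11 without 1 array, where those of *Fa2h*, the dimmer *Ugt8a* probe set and 1436090_PM_at of *Enpp6* turned negative, the last of these also when arrays were centred on their median. Of the 11, 0 were called in limma and 3 passed an unadjusted p of 0.05, those of *S1pr5*, *Aspa* and *Gal3st1*, against 6.92% of all probe sets. Over all probe sets 0.00222% were called, which is 1 probe set.

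Among the members, signals of the galactolipid genes *Fa2h* and *Ugt8a* followed each other over the 8 arrays with r of 0.936, and *Fa2h* followed *Enpp6* with r of 0.881. *Aspa* and *S1pr5* had r of 0.842, and *Cers2* and *Gatm* had r of 0.830. These pairs share the arrays and the group means, and the values are a description. The genes most like *Fa2h* were *3110039I08Rik* (0.991), *Hnrnpul2* (0.989) and *Sdha* (0.981), those most like *Ugt8a* were *Plekhh1* (0.978), *Samd4* (0.971) and *Tenm2* (0.961), and those most like *Enpp6* were *Slc24a3* (0.984), *Atp2b3* (0.980) and *Frmd4a* (0.980). *S1pr5* was closest to *Flrt3* (0.966), *Ppfia4* (0.957) and *Ctdsp1* (0.953), *Gal3st1* to *Hmgn2* (0.974), *Ccdc82* (0.959) and *Smad4* (0.956), and *Cers2* to *Fam32a* (0.960), *Gsto1* (0.952) and *Ssfa2* (0.929). Each search ran over 7167 other genes with a mean log2 signal of at least 6, so high values of r are to be found by its construction. Of the 24 oligodendrocyte markers, 19 were among those genes. The median r with these 19 was 0.67 for *S1pr5*, 0.62 for *Aspa*, 0.56 for *Ugt8a*, 0.51 for *Fa2h*, 0.36 for *Enpp6*, 0.35 for *Gal3st1*, 0.30 for *Cers2* and −0.06 for *Gatm*. The median r with all genes searched was 0.17 for *S1pr5*, −0.01 for *Aspa*, 0.20 for *Ugt8a*, 0.26 for *Fa2h*, 0.30 for *Enpp6*, −0.09 for *Gal3st1*, −0.23 for *Cers2* and −0.34 for *Gatm*.

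**Figure D3:**
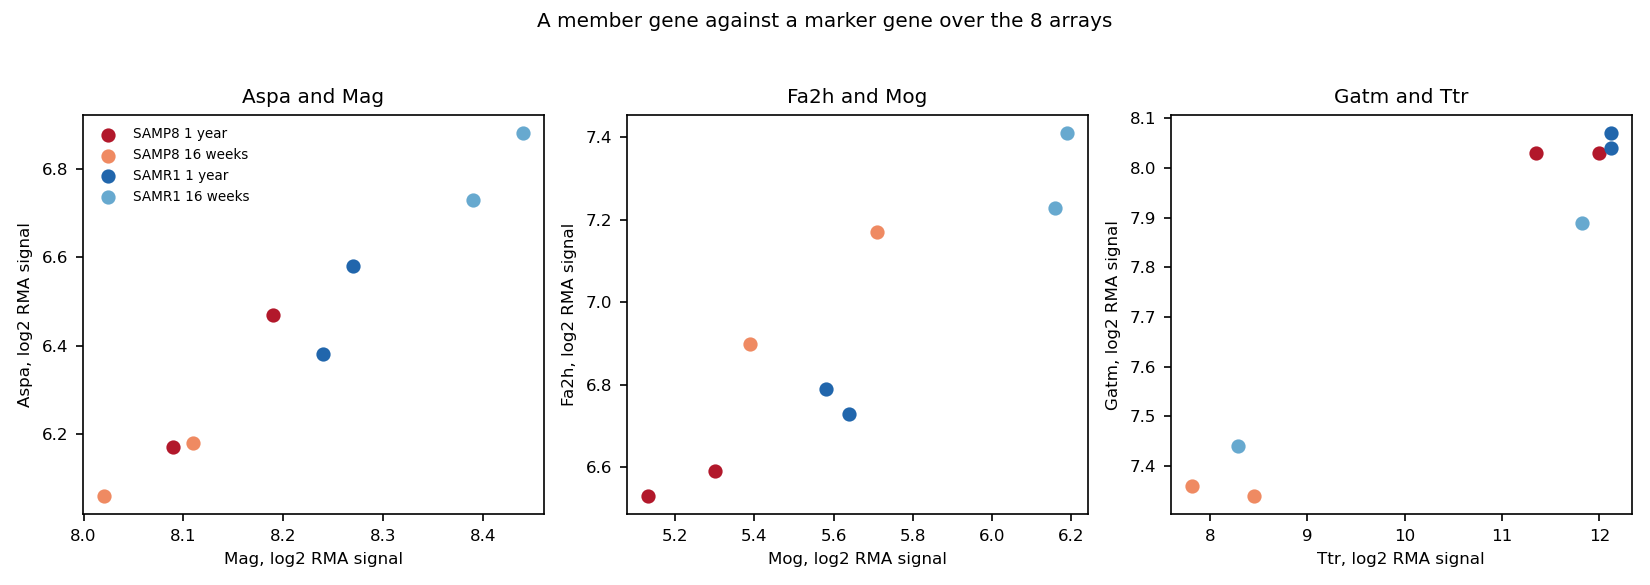
Log2 RMA signals of *Aspa* against *Mag*, *Fa2h* against *Mog* and *Gatm* against *Ttr*, with 1 point for each of the 8 arrays coloured by group. *Aspa* and *Mag* are both highest on the 2 SAMR1 arrays at 16 weeks, and *Gatm* and *Ttr* fall into 5 high arrays (*Ttr* 11.35 to 12.12) and 3 low arrays (*Ttr* 7.81 to 8.45).

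The 24 oligodendrocyte markers were set beside the members as a background. Whether the signals of the members came from the same cells was not tested. In early events 4 of 24 fell and none rose. *Mog*, a surface glycoprotein of myelin, had a log2 fold change of −0.63 (adjusted p 0.0328), *Car2*, a carbonic anhydrase, −0.56 (adjusted p 0.00686), *Nkx6-2*, a transcription factor, −0.44 (adjusted p 0.0345) and *Cnp*, a myelin phosphodiesterase, −0.38 (adjusted p 0.0339). Their median over all 24 was −0.23, beside −0.30 for the 8 genes and 0 for all genes. In late events *Car2* alone was called (−0.41, adjusted p 0.0369), and the median was −0.01. In accelerated aging 0 of 24 were called in limma, with a median of −0.02. In physiological aging 5 of 24 fell, with a median of −0.15, and *Pllp*, a tetraspan protein of myelin, fell by 0.91 on the log2 scale (adjusted p 0.00697). *Sox10* (−0.42, adjusted p 0.0130), *Mog* (−0.57, adjusted p 0.0248), *Nkx6-2* (−0.34, adjusted p 0.0388) and *Gjb1* (−0.29, adjusted p 0.0486) were the others. At an unadjusted p under 0.05 in limma, 14 of 24 passed in early events, all lower, against 14.0% of all probe sets. Late events had 10 (4 higher, 6 lower) against 7.58%. Accelerated aging had 5 (1 higher, 4 lower) against 23.2%, and physiological aging had 11, all lower, against 23.5%. *Mbp*, the myelin basic protein, was called in none of the 4 comparisons, with −0.17 (adjusted p 0.277) in early events. Of 5 measured markers of committed or newly formed oligodendrocytes, 1 was called in accelerated aging and 1 in physiological aging, with medians of −0.10 and −0.19. In both it was *Gpr17*, a receptor of cells that are committed to the lineage, with −0.38 (adjusted p 0.0261) and −0.32 (adjusted p 0.0386).

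**Figure D4:**
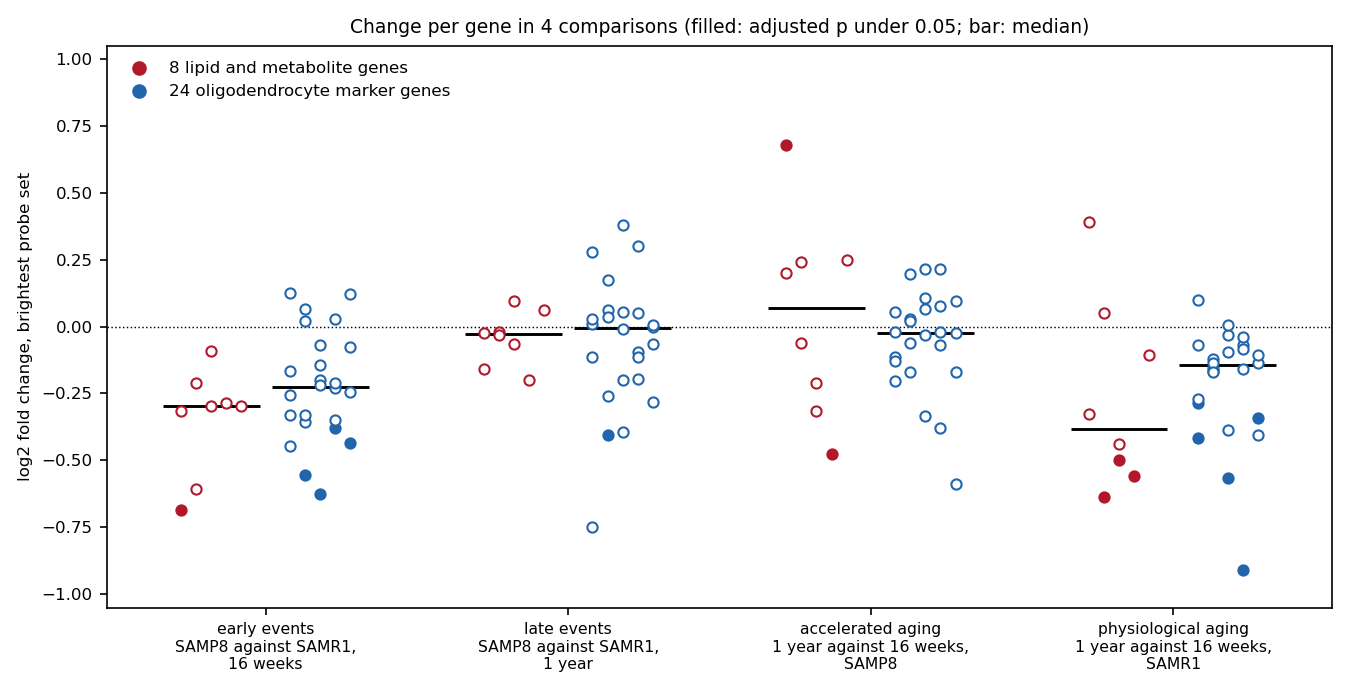
The log2 fold change of the brightest probe set (vertical axis) of the 8 lipid and metabolite genes (red) and of the 24 oligodendrocyte markers (blue) in each comparison, filled where the adjusted p was under 0.05, with a bar at the median. In physiological aging the median was −0.38 for the 8 genes and −0.15 for the 24 markers.

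The wider pathways were read from 8 lists of 67 other genes, of which 65 were measured by a probe set with 1 symbol. Of these, 4 were called in early events, 2 in late events, 4 in accelerated aging and 8 in physiological aging. These are 6.15%, 3.08%, 6.15% and 12.3% of the 65 genes, beside the shares of all probe sets given above.

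In galactolipid breakdown, *Galc* was the 1 of 6 genes called between the strains. It encodes galactosylceramidase, the lysosomal enzyme that removes the galactose that the *Ugt8a* enzyme adds, and its loss causes Krabbe disease in humans. The brightest *Galc* probe set (1452907_PM_at) read 5.97 and 6.06 in SAMP8 mice at 1 year and 6.21 and 6.11 in SAMP8 mice at 16 weeks, against 3.73 and 3.44 in SAMR1 mice at 1 year and 3.45 and 3.68 in SAMR1 mice at 16 weeks. The log2 fold changes were 2.60 in early events (adjusted p 2.88e-05) and 2.43 in late events (adjusted p 4.45e-05). The SAMR1 signals lay below the array medians of 4.32 to 4.36 and no detection calls were used, so a level above background was not shown in SAMR1 and the size of the fold is not settled. Another *Galc* probe set (1420547_PM_at) was called the other way in early events, with −0.39 (adjusted p 0.0353), so the probe sets of this gene disagreed in direction.

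In ceramide synthesis, 0 of 11 measured genes were called in limma in any of the 4 comparisons on their brightest probe sets. At an unadjusted p under 0.05 in limma, 2 passed in early events, 3 in late events, 2 in accelerated aging and 3 in physiological aging. Of all probe sets, 14.0%, 7.58%, 23.2% and 23.5% passed in these comparisons. *Ugcg*, whose glucosyltransferase uses the same ceramide as the *Ugt8a* enzyme, had log2 fold changes of 0.22 (adjusted p 0.232) in early events and −0.30 (adjusted p 0.0572) in accelerated aging on its brightest probe set. A dimmer *Ugcg* probe set (1421269_PM_at) was called higher in early events (0.60, adjusted p 0.0466) and in physiological aging (0.63, adjusted p 0.0207), where a further one (1421268_PM_at) was higher as well (0.75, adjusted p 0.0207). Dimmer probe sets of *Sgms1*, a sphingomyelin synthase, were also called higher in physiological aging, 1426575_PM_at with 0.49 (adjusted p 0.0151) and 1426576_PM_at with 0.49 (adjusted p 0.0158).

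Of 8 elongation genes, *Elovl7* fell in early events by 0.61 on the log2 scale (adjusted p 0.0354). It read 6.67 and 6.56 in SAMP8 mice at 1 year and 6.30 and 6.41 in SAMP8 mice at 16 weeks, against 6.99 and 6.91 in SAMR1 mice at 1 year and 7.12 and 6.80 in SAMR1 mice at 16 weeks. Its other 2 called probe sets were lower as well, at −0.93 (adjusted p 0.0188) and −0.45 (adjusted p 0.0255). In accelerated aging *Elovl6*, an elongase, and *Hsd17b12*, the reductase of the elongation cycle, fell by 0.34 (adjusted p 0.0298) and 0.30 (adjusted p 0.0370) on the log2 scale.

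Of 11 cholesterol genes, *Dhcr7*, the enzyme of a last step of synthesis, was called in early events (−0.46, adjusted p 0.0313) and in physiological aging (−0.71, adjusted p 0.00697). It read 5.95 and 5.91 in SAMP8 mice at 1 year and 6.17 and 6.20 in SAMP8 mice at 16 weeks, against 6.04 and 5.84 in SAMR1 mice at 1 year and 6.67 and 6.62 in SAMR1 mice at 16 weeks. As for *Aspa* and *S1pr5*, the SAMR1 arrays at 16 weeks were the highest of the 8.

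Of 7 other N-acetylaspartate genes, 3 fell in physiological aging and none rose on their brightest probe sets. *Rimkla* and *Rimklb*, the ligases that join N-acetylaspartate to glutamate, had log2 fold changes of −0.56 (adjusted p 0.0144) and −0.47 (adjusted p 0.0225), and *Acss1*, a mitochondrial enzyme that makes acetyl-CoA from acetate, had −0.34 (adjusted p 0.0489). A dimmer *Rimklb* probe set (1435532_PM_at) was called lower in accelerated aging (−0.57, adjusted p 0.0122) and in physiological aging (−0.55, adjusted p 0.00930). A dimmer *Acss2* probe set (1446542_PM_at) was called higher in accelerated aging (0.345, adjusted p 0.0281). *Nat8l*, which makes N-acetylaspartate in neurons, had −0.12 (adjusted p 0.607) in early events, where *Aspa* was called lower. In the creatine list, 0 of 4 genes were called in limma in any comparison on their brightest probe sets. In physiological aging 1 passed an unadjusted p of 0.05 in limma, against 23.5% of all probe sets. A dimmer probe set (1432418_PM_a_at) of *Ckmt1*, a mitochondrial creatine kinase, was called lower in accelerated aging (−0.43, adjusted p 0.0258) and in physiological aging (−0.43, adjusted p 0.0234). *Gamt*, the enzyme of the second step after *Gatm*, had −0.10 (adjusted p 0.503) in accelerated aging, and *Slc6a8*, the creatine transporter, had −0.14 (adjusted p 0.382).

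Of 9 other sphingosine 1-phosphate genes, *Sphk2*, a kinase that makes the ligand, was called in accelerated aging (0.59, adjusted p 0.0203) and in physiological aging (0.43, adjusted p 0.0438). A dimmer *Sphk2* probe set gave −0.39 (adjusted p 0.0426) in accelerated aging, so its probe sets disagreed. *Sgpl1*, the lyase that breaks the ligand down, fell in physiological aging by 0.53 on the log2 scale (adjusted p 0.0144), in the comparison in which *S1pr5* fell. The receptor gene *S1pr1* had −0.17 (adjusted p 0.546) there.

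Of 9 choline and lysolipid genes, *Enpp5*, a relative of *Enpp6*, was lower in SAMP8 mice at both ages. It read 7.42 and 7.36 in SAMP8 mice at 1 year and 7.72 and 7.80 in SAMP8 mice at 16 weeks, against 8.75 and 8.83 in SAMR1 mice at 1 year and 8.48 and 8.70 in SAMR1 mice at 16 weeks. Its log2 fold changes were −0.83 (adjusted p 0.00328) in early events, −1.40 (adjusted p 0.000175) in late events and −0.37 (adjusted p 0.0444) in accelerated aging. *Gdpd1*, which encodes a lysophospholipase D, fell by 0.38 in physiological aging (adjusted p 0.0386).

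**Figure D5:**
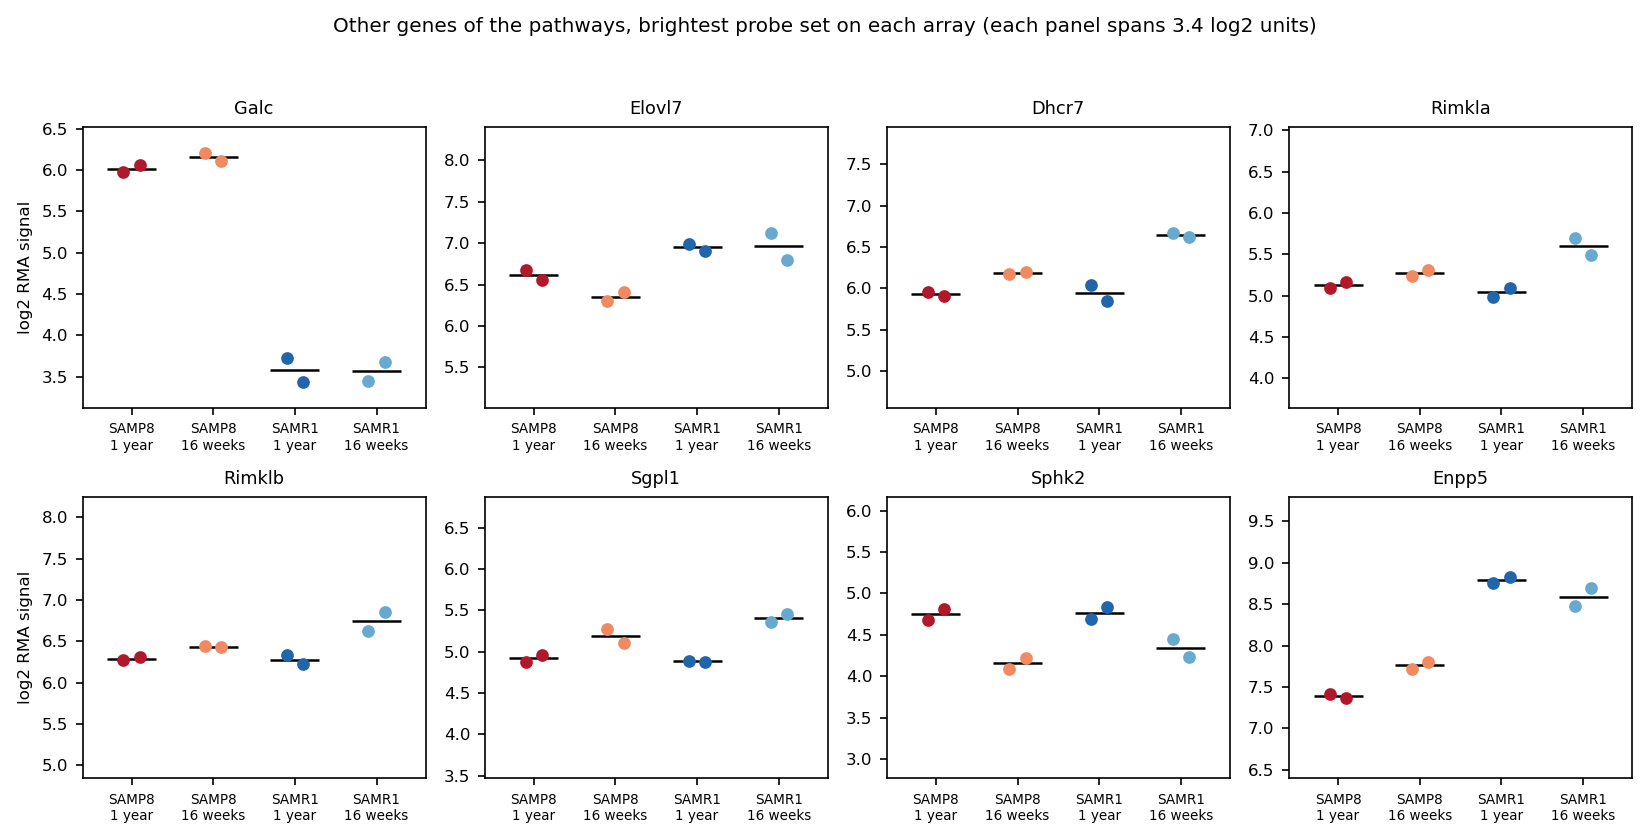
The log2 RMA signal (vertical axis) of the brightest probe set of *Galc*, *Elovl7*, *Dhcr7*, *Rimkla*, *Rimklb*, *Sgpl1*, *Sphk2* and *Enpp5* on each array, with points for the 2 arrays and a line for the mean of each group. *Galc* reads 5.97 to 6.21 on the SAMP8 arrays and 3.44 to 3.73 on the SAMR1 arrays, and *Enpp5* is lower on all 4 SAMP8 arrays.

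The SAMR1 arrays at 16 weeks, which enter the calls of *Aspa* in early events and of *Fa2h*, *Enpp6* and *S1pr5* in physiological aging, also differed in region markers in the same comparisons. Of 4 hypothalamus markers, *Avp* was called in early events (−2.33, adjusted p 0.0313) and *Avp* and *Pmch* in physiological aging (−2.24, adjusted p 0.0202, and −2.35, adjusted p 0.0490). Of 4 thalamus markers, *Prkcd* was called in early events (−0.73, adjusted p 0.0111), and the summed thalamus level was 8.56 to 9.04 on SAMP8 arrays and 8.95 to 9.34 on SAMR1 arrays at 16 weeks, which overlapped. Over the 8 arrays *Aspa* had r of 0.807 with *Prkcd*, 0.776 with *Pmch* and 0.711 with *Avp*. In the same order r was 0.742, 0.863 and 0.836 for *S1pr5* and 0.637, 0.759 and 0.691 for *Fa2h*. *Enpp6* was not set beside these markers. With *Drd1* of the striatum, r was −0.67 for *Aspa*, −0.61 for *S1pr5* and −0.47 for *Fa2h*. The summed level of 4 olfactory bulb markers was 6.29 to 7.89 on SAMP8 arrays at 1 year, 6.08 to 7.64 on SAMP8 arrays at 16 weeks, 5.99 to 6 on SAMR1 arrays at 1 year and 6.22 to 6.23 on SAMR1 arrays at 16 weeks, so 1 array of each SAMP8 group was high. *Avp* and *Pmch* were high on both SAMR1 arrays at 16 weeks, so no fit could leave both arrays out and keep the comparison. The part of the RNAs of these 4 regions in the calls was not tested.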

How the data were processed

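RNA from the cerebral cortex of male SAMP8 and SAMR1 mice, 2 arrays in each of 4 groups, was hybridised to MG-430 PM strips. The log2 signals deposited by the authors, with 2 decimals for each probe set, came from RMA (Expression Console). The submitters' processing notes also name limma and the Transcriptome Analysis Console. The labelling kit is named differently in the sample labels, the series text and the paper, so the transcript end that the signal reports is not settled. SAMP8 samples carry SAMR8 as their genotype label, and groups follow the sample titles. 4 deposited tables hold the authors' own comparisons (group means, signed folds, p-values and FDR) and were not used. The deposited series matrix held the same log2 values, with a largest difference of 0.

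limma 3.58.1 in R 4.3.3 fitted 4 group means to the 8 arrays for 45037 probe sets, after 40 control probe sets were left out, with Benjamini-Hochberg adjustment over all of them. There were 4 residual and 4.5 prior degrees of freedom. No dim probe set was removed, and the number of arrays limits the precision. Every adjusted p in the text is from this fit, except where an array was left out, another alternative is named or a range over alternatives is given. The paper gives 2 mice for each age without tying arrays to mice, so p-values reflect only how far these arrays differ, which may be technical. Where 1 array was left out, the remaining array of its group was assumed to vary like the other groups.

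All 8 genes were named with each probe set. From the pathway lists, genes called in a comparison were named, at most 4 for each list and comparison, and the 3 genes most like each member by Pearson's r were named. *Ugcg*, *Nat8l*, *Gamt*, *Slc6a8*, *S1pr1* and the marker genes stand outside that rule and were chosen after their values were seen. The members and lists were chosen with earlier results of these data known. *Cers1*, *Idi1* and the marker *Neu4* had no probe set with that symbol alone. Values of some list genes are left out of the text, while the counts include them. Signals of different probe sets are not on 1 scale and were not compared. Promoter sequences are from RefSeq (GRCm38.p6). The fit was tested on simulated data. Alternatives were the fit on 4 arrays alone, the replicate number as a block, leaving out each array, median centring, a variance trend, a minimum mean log2 signal of 5, the study's threshold (unadjusted p under 0.05 and fold above 1.1) and the methods' ANOVA.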

Additional observations from a re-analysis of the deposited data

How the results depend on the processing

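The counts of called probe sets were 1 in early events, 0 in late events, 2 in accelerated aging, 3 in physiological aging and 0 for the difference between the strains. With the fit on only the 4 arrays of a comparison they were 0 in early events, 1 in accelerated aging (*Gatm*) and 0 in physiological aging. With a variance trend early events had 2, *S1pr5* being added, and *Ugt8a* was added in physiological aging (adjusted p 0.0421). At the study's threshold the counts were 7, 5 and 6 for early events, accelerated aging and physiological aging and 3 for the difference. Of all probe sets, 14.0%, 23.2%, 23.5% and 6.92% passed the unadjusted p part of that threshold in limma, in the same order. The methods' ANOVA at the study's threshold gave 2 in early events and 1 in late events (*Fa2h*). It gave 3 in accelerated aging (*Gatm*, *Cers2* and *Enpp6*, with *Fa2h* lost) and 1 in physiological aging. After Benjamini-Hochberg adjustment the ANOVA gave 0 in early events, 0 in accelerated aging and 0 in physiological aging. No share of all probe sets is given for the ANOVA or with the fold threshold added. Leaving out 1 array gave 0 to 2 in early events, 0 to 3 in accelerated aging and 0 to 4 in physiological aging. Without either one of the SAMR1 arrays at 1 year all 6 calls were lost, and *S1pr5* was called in early events instead. The replicate numbers of the labels did not pair the samples (deviations of same-numbered arrays correlated at −0.09 to 0.20), and the replicate block kept all 6 calls and added 0, with counts of 1, 0, 2, 3 and 0.

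Of 877 values of single probe sets under these alternatives, 0 called values and 30 values not called changed sign, the largest of them 0.16 in size. Median centring kept all 6 calls and shifted values by at most 0.025, but it moved the share of higher calls in accelerated aging to 33.9% of 2512, against 44.7% of 2283 as deposited. A minimum mean log2 signal of 5 left out *Gal3st1*, *S1pr5* and *Enpp6*, kept the 4 other calls and added *Ugt8a* in physiological aging (adjusted p 0.0470).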
